A study of Mus musculus with 7 samples.

Results

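The genes described here encode intermediate filament proteins and nuclear lamins: the simple-epithelial keratins Krt8, Krt18 and Krt19, the muscle and mesenchymal filament genes Des, Vim, Nes and Synm, and the lamin genes Lmna, Lmnb1 and Lmnb2. They are 10 of the 23337 genes of the deposited count table and were found by their symbols. They were selected on their counts at the 2 ages in these same libraries, so their levels and fold changes are given as a description, without p-values, and nothing is inferred from how many of them differed. RNA was sequenced from mouse cardiomyocytes at postnatal day 30 (P30, 3 libraries) and postnatal day 6 (P6, 4 libraries). At both ages the mice carried Rosa-Tom or Rosa-Cas9, alleles of the Rosa locus, and had received AAV9-cTNT-Cre on postnatal day 1, a virus in which the cardiac troponin T promoter drives Cre recombinase. Cells were freed by retrograde collagenase perfusion and sorted by fluorescence. The genotype label is the same for every library; the labels do not say which allele a mouse carried or whether libraries came from separate animals, and in one protocol field give collection at P14, against P30 or P6 elsewhere. P-values thus rest on the scatter among libraries alone, part of which may be technical, and time since the virus cannot be told apart from age.

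Intermediate filaments are rope-like polymers of rod-shaped proteins that pair through coiled coils. Keratins form filaments only as pairs of a type I chain such as Krt18 or Krt19 with a type II chain such as Krt8, whereas desmin, the filament of mature muscle, and vimentin, the filament of mesenchymal cells, can each polymerise with themselves, and nestin and synemin co-assemble with them. In the heart desmin links Z-discs to each other, to the intercalated discs and to the nucleus. Lamins are the nuclear members of the family and form the mesh under the inner nuclear membrane; Lmna encodes the A-type lamins A and C, which a count per gene cannot separate, and Lmnb1 and Lmnb2 encode the B-type lamins.

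Total counts were 15555469 to 19368717 in the P30 libraries and 10594932 to 51427646 in the P6 libraries, so that 3 counts corresponded to at most 0.210 CPM (counts scaled to library size, with TMM factors) at P30 and 0.271 CPM at P6. The cardiomyocyte identity of the cells was checked on 10 markers, all of them detected in every library, with a summed level of 132308 to 140538 CPM at P30 and 94893 to 113764 CPM at P6, and 4 of the 10 were higher at P30. Myh6, the alpha-myosin heavy chain, was the most counted of them at 57300 ± 2252 CPM at P30 (SD, n = 3) and 33636 ± 5693 CPM at P6 (SD, n = 4). Markers of other cell types were present at far lower summed levels. Of all genes tested, 26.3% passed as higher at P30 and 27.8% as lower. Endothelial markers passed the test as higher at P30 for 7 of 10 genes, with sums of 356 to 703 CPM at P30 and 127 to 254 CPM at P6; Kdr, a receptor for vascular endothelial growth factor, had 153 ± 46.9 CPM at P30 and 28.4 ± 7.64 CPM at P6 (edgeR adjusted p = 4.5e-05). Leukocyte markers summed to 13.3 to 43.8 CPM at P30 and 2.30 to 6.16 CPM at P6, with 7 of 8 tested genes higher. Of 10 mitosis markers, all 10 were lower, with sums of 21.1 to 41.9 CPM at P30 and 296 to 488 CPM at P6. The tested leukocyte markers other than Lyz2 passed the filter on low counts only through their P30 libraries. The mitosis markers other than Mki67 and Cenpf passed it only through their P6 libraries. For these 2 lists the numbers called are therefore not read as a result. Library P30b was the P30 library with the highest endothelial, fibroblast and leukocyte sums.

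Of the 10 genes, 9 passed the filter on low counts; Krt19 did not. Krt8 and Krt18 passed only through their P6 counts. At an adjusted p under 0.05 over all genes tested, Des, Nes and Synm were higher at P30 (3 of 9, against a background of 26.3% of the 12561 genes tested), and Krt8, Krt18, Vim, Lmna and Lmnb1 were lower (5 of 9, against 27.8%). Lmnb2 did not pass. In either direction 54.1% of all genes tested passed, and since these libraries served for the choice nothing is read from the counts. Every P30 library lay above every P6 library for Des and Synm (2 of 9, against 27.8% of all genes), and below for Krt8, Krt18, Lmna and Lmnb1 (4 of 9, against 28.8%). The per-library plot of all 10 genes shows these levels.

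**Figure D1:**
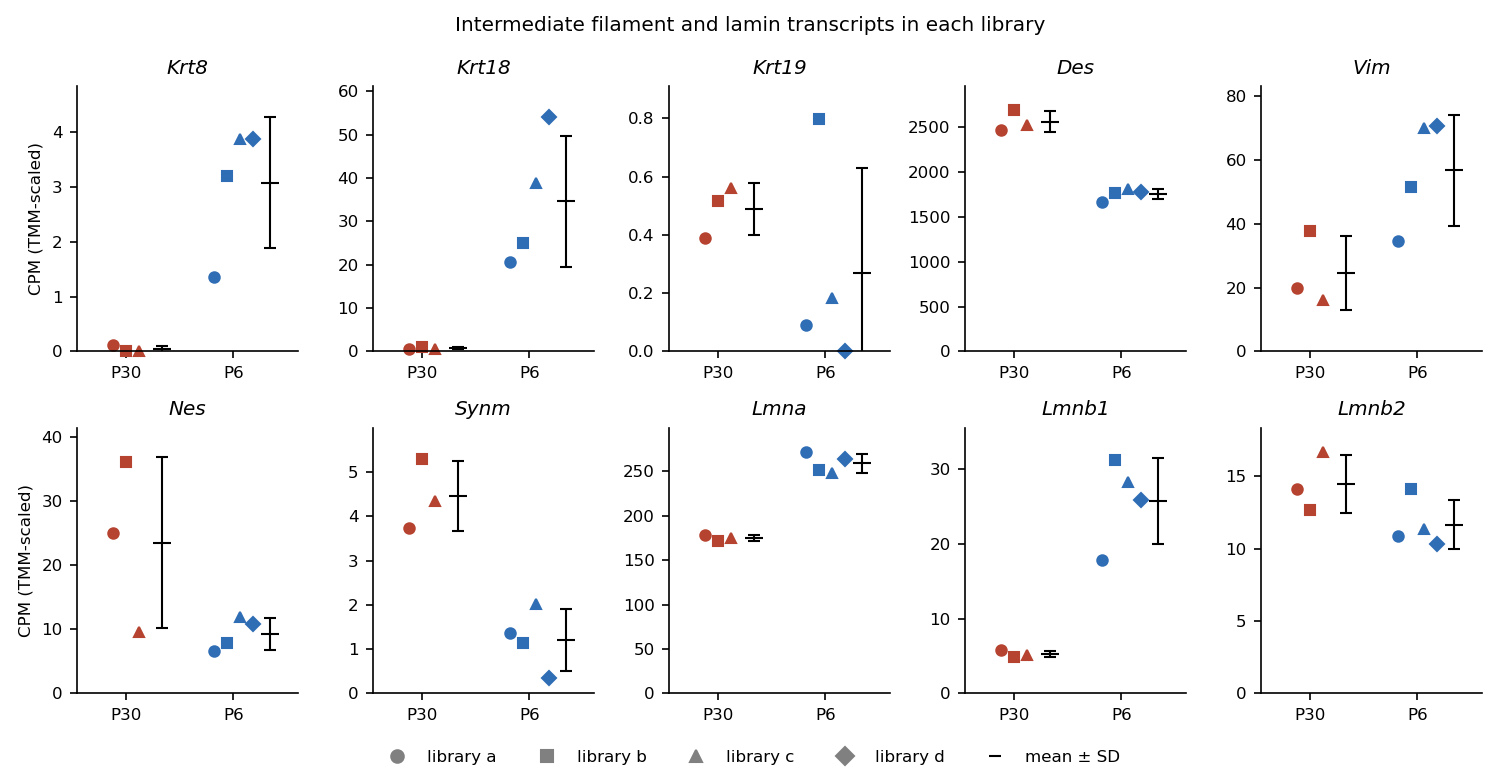
CPM (scaled with TMM factors, linear axes from 0) of the 10 genes in each library, with P30 left of P6; symbols mark single libraries and black bars the mean ± SD (3 and 4 libraries; the bar of Krt19 at P6 is cut at 0). Des and Synm lie higher and Krt8, Krt18, Lmna and Lmnb1 lower in every P30 library, while Vim, Nes, Lmnb2 and Krt19 overlap between the ages.

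The largest differences were those of the partner keratins Krt18 and Krt8, which were near the detection limit at P30. Both lie on chromosome 15 (GRCm38), Krt8 at 101996698 to 102004482 on the minus strand and Krt18 at 102028180 to 102032027 on the plus strand, so that they point away from each other with 23697 bases between them. Their promoters are shown because these neighbours were low together at P30. Each sequence runs 5′ to 3′ over 250 bases before and 30 bases from the RefSeq start (GRCm38.p6; Krt8 at chr15:102004313-102004592, minus strand, Krt18 at chr15:102027966-102028245, plus strand), and capitals mark matches to the motifs searched.
Krt8: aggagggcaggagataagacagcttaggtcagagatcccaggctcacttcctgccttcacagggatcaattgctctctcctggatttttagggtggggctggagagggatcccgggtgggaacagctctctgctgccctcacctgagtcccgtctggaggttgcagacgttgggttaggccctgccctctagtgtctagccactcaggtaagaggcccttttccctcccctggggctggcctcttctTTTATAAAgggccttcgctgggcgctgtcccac
Krt18: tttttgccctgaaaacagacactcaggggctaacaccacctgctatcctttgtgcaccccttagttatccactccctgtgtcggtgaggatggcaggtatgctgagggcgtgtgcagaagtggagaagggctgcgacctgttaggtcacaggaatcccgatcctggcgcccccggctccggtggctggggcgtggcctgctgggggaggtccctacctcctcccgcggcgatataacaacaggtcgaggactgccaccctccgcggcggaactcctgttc
The motifs were the TATA box (TATAAA), the CCAAT box (CCAAT), the GC box (GGGCGG), the E-box form CAGCTG, the AP-1 site (TGANTCA), the cell cycle element CHR (TTTGAA), and, by name, the CArG box and the MEF2 site, each searched on both strands. In the Krt8 window the TATA box matched on both strands, in overlapping letters at the RefSeq start, and no other motif matched. The gene coordinates above are those of GENCODE and place the start of both genes upstream of the RefSeq start. In the Krt18 window none of them matched. Of 32817 mouse promoter windows of this length, 13.1% held a TATA box.

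Krt18, the type I partner of Krt8, had 0.669, 1.10 and 0.561 CPM in P30a, P30b and P30c, against 20.5, 25.0, 39.0 and 54.0 CPM in P6a, P6b, P6c and P6d. The ages did not overlap, and the P6 libraries themselves differed, with P6c and P6d above P6a and P6b. The means were 0.776 ± 0.284 CPM at P30 and 34.6 ± 15.1 CPM at P6, a log2 fold change of -5.47 ± 0.44 (SE), or 44.2-fold lower at P30. Krt8, the type II partner, had 2, 0 and 0 counts in P30a, P30b and P30c, against 15, 96, 210 and 46 counts in P6a to P6d. In CPM the P6 levels were 1.36, 3.20, 3.87 and 3.88. Over the pooled libraries the ratio of P30 to P6 was 0.0123 for Krt8 (95% exact binomial interval 0.00148 to 0.0446, from 2 and 367 counts) and 0.0223 for Krt18 (0.0157 to 0.0308, from 37 and 3733 counts). The intervals cover counting error only, and they overlap. At P6 the type I chain was the more abundant: per kilobase of transcript, Krt18 exceeded Krt8 by 20.6, 10.7, 13.7 and 19.0 times in P6a to P6d. Some counts of Krt8 are uncertain, since it shares 101 exonic bases with a non-coding gene on the opposite strand and has an annotated processed pseudogene, Krt8-ps.

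Krt19, the other type I keratin of simple epithelia (chromosome 11, 100140810 to 100148665, minus strand), had few counts at both ages. It had 7, 8 and 8 counts in the P30 libraries, against 1, 24, 10 and 0 counts in P6a to P6d, or 0.490 ± 0.0886 CPM at P30 and 0.268 ± 0.362 CPM at P6. The ages overlapped, and the gene was not tested; 0 counts in P6d allow up to 0.253 CPM. Krt8, Krt18 and Krt19 are all known from mesothelium, the epithelial layer that covers the heart, so the 9 epicardial and mesothelial markers with a row in the table are given beside them. The summed level of these markers was 8.31, 9.89 and 13.0 CPM in P30a to P30c, against 6.42, 14.9, 8.11 and 9.71 CPM in P6a to P6d. Of 6 tested, 1 was lower at P30 and none higher (27.8% and 26.3% of all genes tested). Tbx18, the one that passed, had 2.09 ± 0.641 CPM at P30 and 4.32 ± 0.764 CPM at P6 (edgeR adjusted p = 0.012). Krt18 amounted to 4.30% to 11.1% of the summed epicardial and mesothelial markers at P30 and 168% to 557% at P6. Library P6c, with 2114 counts of Krt18, had no count of 5 of the 9 markers, namely Msln, Upk3b, Upk1b, Lrrn4 and Bnc1. The other 4 were detected there, with Tbx18 at 5.00 CPM, its highest level in any library, Wt1 at 1.95 CPM, Aldh1a2 at 0.958 CPM and Aldh1a1 at 0.203 CPM. These markers were looked at singly after their values were seen. The plot of filament genes against marker sums gives the sums by library. Relative to the summed mitosis markers, Krt18 amounted to 1.73%, 2.62% and 2.66% in P30a to P30c, against 6.94%, 7.22%, 7.98% and 12.4% in P6a to P6d. The part of mesothelial or dividing cells in the keratin levels was not tested.

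**Figure D2:**
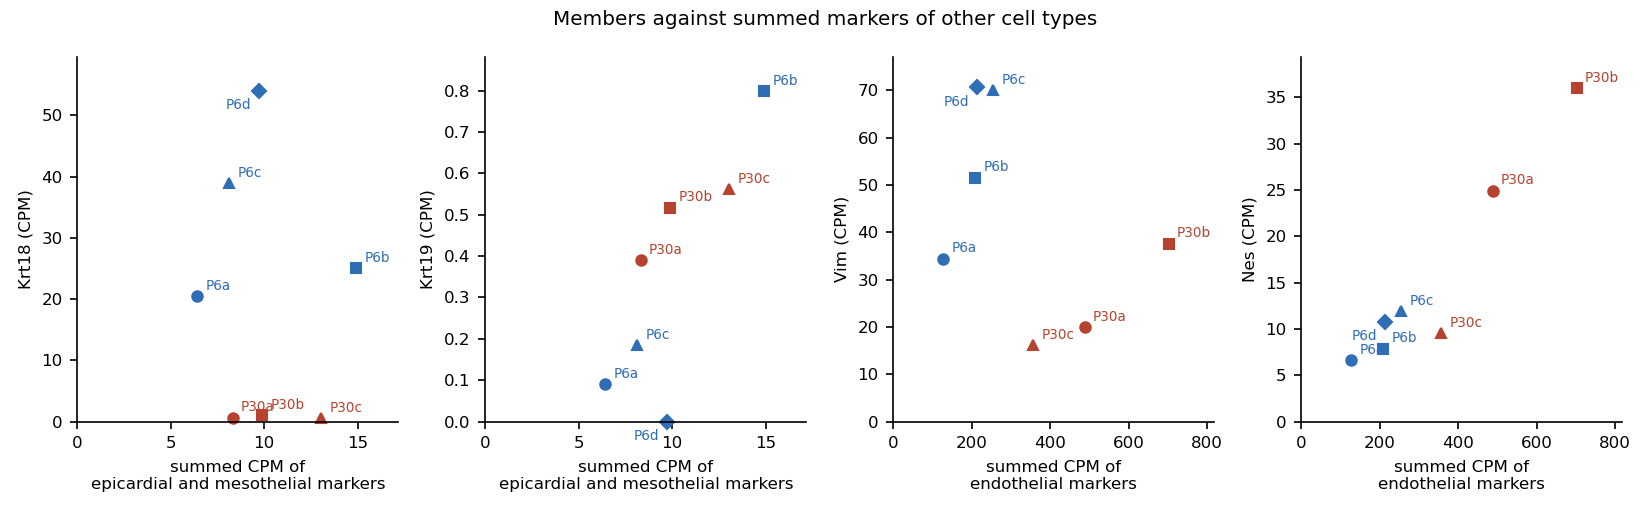
CPM of Krt18, Krt19, Vim and Nes in each library (vertical axes) against the summed CPM of the epicardial and mesothelial or endothelial marker list (horizontal axes, linear from 0), with P30 libraries in red and P6 libraries in blue. Krt18 is higher in every P6 library than in any P30 library, and the epicardial and mesothelial sums of the ages overlap. Nes is highest in P30b and P30a, which also have the highest endothelial sums, and Vim is highest in P6d and P6c. The part of these cell types in the levels was not tested.

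Among the other 20 intermediate filament genes listed, only 5 had enough counts to be tested. All 5 passed, 2 as higher and 3 as lower at P30, where 54.1% of all genes tested passed in either direction. Krt222, a keratin-like gene, had 58.5 ± 4.41 CPM at P30 and 28.1 ± 4.85 CPM at P6 (log2 fold change 1.06 ± 0.14, edgeR adjusted p = 1.9e-04). Sync, which encodes the desmin-binding filament protein syncoilin, had 34.5 ± 2.20 CPM at P30 and 21.0 ± 2.06 CPM at P6. The others were lower at P30: Krt10, a type I keratin of the epidermis, at 2.70 ± 0.165 CPM at P30 and 8.87 ± 1.56 CPM at P6, the type II keratin Krt80, at 1.27 ± 0.133 CPM at P30 and 4.48 ± 1.13 CPM at P6, and Bfsp1, a filament gene of the lens, at 0.309 ± 0.158 CPM at P30 and 1.13 ± 0.431 CPM at P6. Bfsp1 passed the filter on low counts only through its P6 counts. The type III and neurofilament genes Gfap, Prph, Ina, Nefl, Nefm and Nefh were too low to be tested, and Krt17 had no count in any library.

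Des, which encodes desmin (chromosome 1, 75360329 to 75368579, plus strand), was the most abundant of the 10 genes per kilobase of transcript at both ages. It had 2468, 2689 and 2528 CPM in P30a to P30c, against 1669, 1761, 1809 and 1778 CPM in P6a to P6d. No P30 library overlapped the P6 range, and the spread was small, with a coefficient of variation of 4.46% at P30 and 3.45% at P6. The means of 2562 ± 114 CPM at P30 and 1754 ± 60.5 CPM at P6 gave a log2 fold change of 0.55 ± 0.07. Set against the sum of the 10 cardiomyocyte markers, desmin amounted to 1.83%, 2.03% and 1.80% at P30 and 1.71%, 1.86%, 1.59% and 1.59% at P6, values that overlapped in P6b. Des shares 220 exonic bases with an antisense gene, and the strand setting of the counting is not known.

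Synm encodes synemin, a large filament protein that attaches desmin filaments to the membrane and the Z-disc (chromosome 7, 67730160 to 67759742, minus strand). Its levels were 3.74, 5.30 and 4.35 CPM in P30a to P30c, against 1.36, 1.13, 2.03 and 0.338 CPM in P6a to P6d. The ages did not overlap, and the mean was 4.46 ± 0.787 CPM at P30 and 1.21 ± 0.697 CPM at P6, a log2 fold change of 1.79 ± 0.43. The lowest library, P6d, held 4 counts. Synm shares 84 exonic bases with Ttc23 and 426 with another gene, both on the opposite strand, so its low counts are uncertain.

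Vim (chromosome 2, 13573927 to 13582826, plus strand) and Des belong to the same filament type and their promoters are shown side by side because the 2 genes differed in direction. The windows are as above (GRCm38.p6, both on the plus strand, Des at chr1:75360042-75360321 and Vim at chr2:13574061-13574340), with motif matches in capitals.
Des: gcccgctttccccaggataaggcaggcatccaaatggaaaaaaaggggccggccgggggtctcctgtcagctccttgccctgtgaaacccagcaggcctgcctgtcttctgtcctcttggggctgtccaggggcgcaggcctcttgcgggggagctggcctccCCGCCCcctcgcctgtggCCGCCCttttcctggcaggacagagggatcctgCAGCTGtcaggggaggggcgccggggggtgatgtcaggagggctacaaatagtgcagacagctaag
Vim: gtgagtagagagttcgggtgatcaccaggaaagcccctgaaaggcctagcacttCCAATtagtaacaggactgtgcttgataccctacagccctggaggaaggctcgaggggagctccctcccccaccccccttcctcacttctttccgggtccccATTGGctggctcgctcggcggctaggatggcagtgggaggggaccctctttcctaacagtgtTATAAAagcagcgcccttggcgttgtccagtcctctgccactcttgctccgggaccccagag
In the Des window the GC box matched at 87 and 69 bases and the E-box form CAGCTG at 36 bases before the start; 34.7% and 14.9% of all windows held these motifs. In the Vim window the CCAAT box matched at 196 and 94 bases and the TATA box at 32 bases before the start, and 36.1% of all windows held a CCAAT box. These distances are from the RefSeq starts, which differ from those of GENCODE. GENCODE places the start of Des further downstream and that of Vim further upstream. The whole Vim window therefore lies inside the gene coordinates given here.

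Vim, which encodes vimentin, had 20.0, 37.6 and 16.1 CPM in P30a to P30c, against 34.5, 51.5, 70.0 and 70.6 CPM in P6a to P6d. The ages overlapped, because P30b was above P6a. The means were 24.6 ± 11.5 CPM at P30 and 56.7 ± 17.3 CPM at P6, with a log2 fold change of -1.21 ± 0.32. Of the filament counts of Des, Vim, Nes and Synm per kilobase, Vim made up 1.28% ± 0.530 at P30 and 4.22% ± 1.13 at P6, and Des 98.2% ± 0.749 at P30 and 95.5% ± 1.18 at P6. These shares use the longest coding transcript. For Vim it has 2193 bases, against 4743 in the union of its exons, so the share of Vim depends on that choice.

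Nes encodes nestin, a filament protein of progenitor cells that is also known from vascular endothelium (chromosome 3, 87971078 to 87980451, plus strand). It had 24.9, 36.0 and 9.54 CPM in P30a to P30c, against 6.60, 7.89, 11.9 and 10.8 CPM in P6a to P6d. Library P30c lay within the P6 range. The means were 23.5 ± 13.3 CPM at P30 and 9.30 ± 2.47 CPM at P6, a log2 fold change of 1.33 ± 0.38 that fell to 0.89 ± 0.36 without P30b, when the gene no longer passed the test.

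Vim and Nes are known from endothelial cells, pericytes and fibroblasts, so marker sums were set beside them. Endothelial markers summed to 488, 703 and 356 CPM in P30a to P30c, against 127, 209, 254 and 214 CPM in P6a to P6d. Over the P30 libraries their order was that of both Nes and Vim. Relative to that sum, Nes amounted to 5.11%, 5.12% and 2.68% in P30a to P30c and 5.21%, 3.78%, 4.68% and 5.04% in P6a to P6d, so the ages overlapped on this measure. Vim amounted to 4.10%, 5.35% and 4.53% of the endothelial sum at P30 and 27.2%, 24.7%, 27.5% and 33.0% at P6. Of 9 tested fibroblast markers, 1 was lower at P30 and none higher (27.8% and 26.3% of all genes tested). Fibroblast markers summed to 217, 513 and 239 CPM in P30a to P30c, against 404, 643, 336 and 364 CPM in P6a to P6d. Against this sum Vim amounted to 9.22%, 7.33% and 6.75% at P30, and to 8.52% and 8.01% in P6a and P6b but 20.8% and 19.4% in P6c and P6d. Of 10 smooth muscle and pericyte markers, 5 were higher at P30 and 1 lower (26.3% and 27.8% of all genes tested). The lower one, Cnn1, had 0.837, 0.129 and 0.491 CPM in P30a to P30c, against 9.05, 7.39, 5.62 and 6.42 CPM in P6a to P6d. Cnn1 passed the filter on low counts only through its P6 counts. The sum of the 10 markers was 1676, 1399 and 2235 CPM in P30a to P30c, against 1461, 1505, 2555 and 2336 CPM in P6a to P6d, made up mostly of Acta2 and Abcc9. Rgs5, a pericyte marker, had 25.0, 34.4 and 11.2 CPM in P30a to P30c, against 6.69, 5.76, 14.4 and 10.97 CPM in P6a to P6d, with the same order of the P30 libraries as Nes. Pdgfrb, a growth factor receptor of pericytes, had 38.4, 48.6 and 25.4 CPM in P30a to P30c, against 9.14, 13.4, 15.6 and 13.1 CPM in P6a to P6d. Kcnj8, a potassium channel gene of pericytes, had 15.8, 20.2 and 10.7 CPM in P30a to P30c, against 4.88, 3.50, 5.66 and 3.63 CPM in P6a to P6d. Pdgfrb and Kcnj8 thus also followed that order at P30. Myh11 and Notch3, likewise called higher at P30, did not follow it. In P30a to P30c Myh11 had 17.2, 12.7 and 12.0 CPM, and Notch3 had 13.9, 24.8 and 15.1 CPM. Of the rest of the list, Acta2, Tagln, Cnn1, Cspg4 and Abcc9 did not follow it either. In P30a to P30c Cspg4 had 48.1, 47.2 and 49.9 CPM and Abcc9 461, 402 and 405 CPM, and neither was called. In bulk RNA fewer cells of a type and less RNA per cell cannot be told apart, and the part of these cells in the levels of Vim and Nes was not tested.

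Lmna, the A-type lamin gene (chromosome 3, 88480147 to 88509956, minus strand), was the most abundant lamin at both ages. It had 179, 171 and 175 CPM in P30a to P30c, against 272, 251, 249 and 264 CPM in P6a to P6d. The ages did not overlap, with coefficients of variation of 2.11% at P30 and 4.21% at P6. The means were 175 ± 3.69 CPM at P30 and 259 ± 10.9 CPM at P6, a log2 fold change of -0.57 ± 0.08.

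Lmnb1, the B-type lamin gene whose product is known to be lost from senescent cells (chromosome 18, 56707813 to 56753424, plus strand), was 4.92-fold lower at P30. Its levels were 5.75, 4.85 and 5.19 CPM in P30a to P30c, against 17.8, 31.2, 28.3 and 25.8 CPM in P6a to P6d. Every P30 library was well below the lowest P6 library, P6a. The log2 fold change was -2.30 ± 0.21, from 5.26 ± 0.454 CPM at P30 and 25.8 ± 5.75 CPM at P6. Mitosis markers were lower over the same contrast, and Lmnb1 amounted to 14.9%, 11.6% and 24.6% of their sum at P30 and 6.02%, 9.01%, 5.79% and 5.94% at P6. The part of dividing cells in its level was not tested.

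Lmnb2, the other B-type lamin gene (chromosome 10, 80901203 to 80918245, minus strand), had 14.1, 12.7 and 16.6 CPM in P30a to P30c, against 10.9, 14.1, 11.3 and 10.3 CPM in P6a to P6d. The ages overlapped through P6b. Its log2 fold change of 0.31 ± 0.16 did not pass the test, though it did without P6b, at 0.41 ± 0.15. The B-type lamins thus exchanged places: per kilobase Lmnb1 was 33.6%, 32.2% and 27.9% of B-type lamin counts in P30a to P30c, against 67.1%, 73.4%, 75.6% and 75.7% in P6a to P6d. The mean share was 31.2% ± 2.94 at P30 and 72.9% ± 4.04 at P6, and being taken within each library it does not depend on how libraries are scaled. Of all lamin counts per kilobase, Lmna made up 90.3% ± 0.834 at P30 and 86.9% ± 2.60 at P6, shares that overlapped in P6a. The length used for Lmna was 3156 bases, against 5838 in the union of its exons, so its share depends on that choice.

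**Figure D3:**
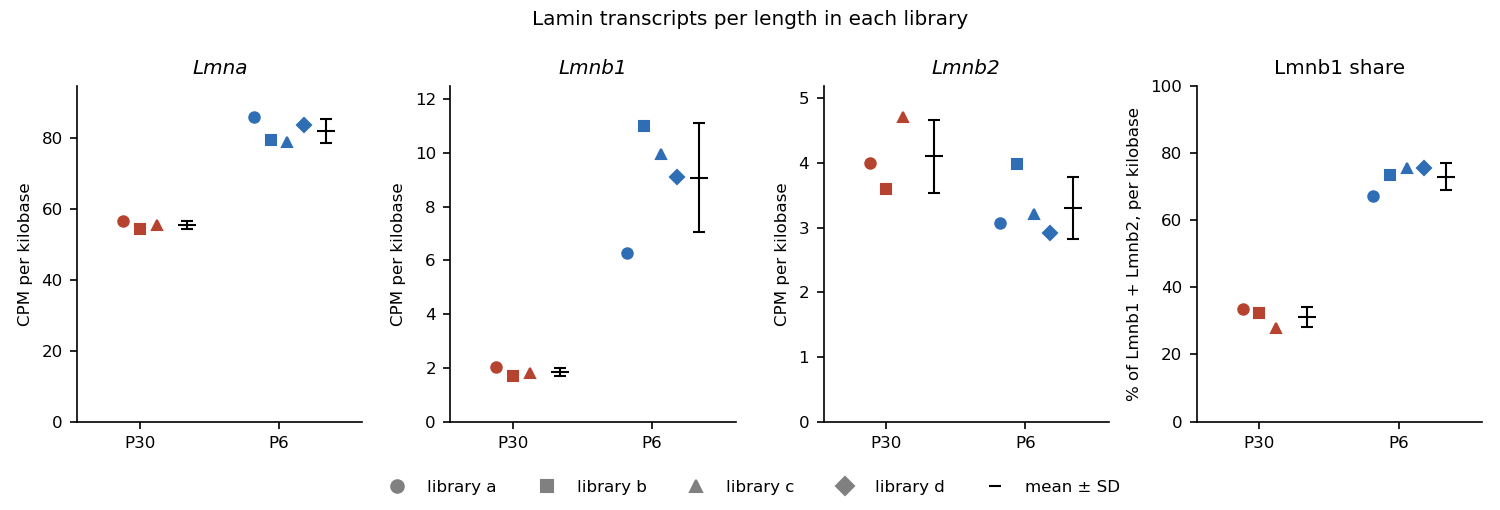
The first 3 panels give CPM per kilobase of the longest coding transcript of Lmna, Lmnb1 and Lmnb2 in each library, and the fourth the share of Lmnb1 in the sum of the B-type lamins (linear axes from 0), with P30 left of P6 and black bars for the mean ± SD. Lmnb1 is 27.9% to 33.6% of the B-type lamins at P30 and 67.1% to 75.7% at P6.

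Levels per kilobase gave the order of the genes at each age. At P30 the order was Des (846 ± 37.8 CPM per kilobase), Lmna (55.4 ± 1.17), Vim (11.2 ± 5.22), Lmnb2 (4.10 ± 0.567), Nes (3.83 ± 2.17), Lmnb1 (1.85 ± 0.160), Synm (0.571 ± 0.101), Krt18 (0.540 ± 0.198), Krt19 (0.311 ± 0.0562) and Krt8 (0.0190 ± 0.0329). The neighbours Lmnb2 and Nes, Nes and Lmnb1, and Synm and Krt18 overlapped in single libraries and did not differ beyond their spread. At P6 the order was Des (579 ± 20.0 CPM per kilobase), Lmna (82.1 ± 3.45), Vim (25.8 ± 7.87), Krt18 (24.1 ± 10.5), Lmnb1 (9.07 ± 2.02), Lmnb2 (3.30 ± 0.476), Krt8 (1.57 ± 0.608), Nes (1.52 ± 0.403), Krt19 (0.170 ± 0.229) and Synm (0.155 ± 0.0891). Vim and Krt18, Krt8 and Nes, and Krt19 and Synm overlapped there. Krt18 thus ranked beside Vim at P6 and beside Synm at P30. The order holds for the longest coding transcript as length. The union of exons is longer for Vim (4743 against 2193 bases) but not for Krt18 (1437 in both). The order of Vim and Krt18 at P6 therefore depends on that choice. The same holds for the order of Lmnb2 and Nes at P30 and of Krt19 and Synm at P6.

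Genes for proteins that anchor and chaperone intermediate filaments were found in both directions. Of 21 tested linkers and chaperones, 9 were higher and 4 lower at P30 and 8 did not pass (26.3% of all genes tested were higher and 27.8% lower), with a median log2 fold change of 0.34 against -0.02 over all genes tested. Scaled by library totals, which moved the median of all genes to -0.20, 8 were higher and 6 lower. Cryab, the small heat shock protein that binds desmin, had 1228 ± 170 CPM at P30 and 795 ± 93.2 CPM at P6 (edgeR adjusted p = 0.0017). Dsp, or desmoplakin, which anchors desmin at the intercalated disc, had 572 ± 52.2 CPM at P30 and 377 ± 17.4 CPM at P6 (edgeR adjusted p = 3.6e-04). Plec, the cytolinker plectin, chosen after its values were seen, had 391 ± 16.2 CPM at P30 and 220 ± 25.7 CPM at P6.

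The linker and chaperone genes that were lower included Eppk1 and Dnajb6, whose products bind keratins. Eppk1, or epiplakin, a cytolinker of epithelial keratins, had 0.614, 0.452 and 0.701 CPM in P30a to P30c, against 4.43, 3.50, 7.63 and 7.77 CPM in P6a to P6d. Its log2 fold change was -3.30 ± 0.40 (edgeR adjusted p = 1.2e-04), the largest in the list. As for Krt18, P6c and P6d were above P6a and P6b. Eppk1 passed the filter on low counts only through its P6 counts. Rock1, a kinase that phosphorylates filament proteins, had 74.4 ± 0.767 CPM at P30 and 97.7 ± 10.1 CPM at P6, and Ppp1r12a, the targeting subunit of myosin phosphatase, 38.3 ± 1.30 CPM at P30 and 78.9 ± 20.4 CPM at P6. The fourth, Dnajb6, a chaperone that binds keratin and was chosen after its values were seen, had 10.6 ± 2.22 CPM at P30 and 14.8 ± 1.36 CPM at P6.

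Partners of the lamins at the nuclear envelope went both ways. Of 21 tested, 9 were higher and 5 lower at P30, with a median log2 fold change of 0.08. Of all genes tested 26.3% were higher and 27.8% lower, and 54.1% passed in either direction. When libraries were scaled by their totals alone 6 were higher and 8 lower, so the balance of this list depended on the scaling. Nrm, an inner nuclear membrane protein called nurim, had 1.86 ± 0.582 CPM at P30 and 12.0 ± 1.26 CPM at P6 (log2 fold change -2.68 ± 0.23, edgeR adjusted p = 1.9e-05). Tmpo, which encodes the lamin-binding LAP2 proteins and was chosen after its values were seen, had 44.4 ± 2.91 CPM at P30 and 129 ± 10.6 CPM at P6. Banf1, which ties DNA to envelope proteins of the LEM family, had 63.4 ± 8.26 CPM at P30 and 139 ± 19.0 CPM at P6, and Matr3, a nuclear matrix protein, 158 ± 7.76 CPM at P30 and 288 ± 27.3 CPM at P6. Tor1a, or torsin A, an ATPase of the endoplasmic reticulum and nuclear envelope that was also chosen after its values were seen, had 11.3 ± 0.599 CPM at P30 and 19.0 ± 2.0 CPM at P6.

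In the other direction, Sun1, part of the complex that joins the lamina to the cytoskeleton and chosen after its values were seen, had 95.9 ± 5.77 CPM at P30 and 57.4 ± 7.55 CPM at P6. Narf, which binds prelamin A, had 259 ± 24.5 CPM at P30 and 175 ± 31.4 CPM at P6. Tmem201, an inner nuclear membrane protein, had 247 ± 9.03 CPM at P30 and 185 ± 16.0 CPM at P6 (edgeR adjusted p = 0.0032, and 0.065 with library totals, within a range of 1.1e-04 to 0.065 over the alternatives).

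Among 5 enzymes that mature lamins, Zmpste24 and Fnta were higher at P30 and none was lower (26.3% and 27.8% of all genes tested). Zmpste24, the protease that cuts prelamin A, had 53.5 ± 0.572 CPM at P30 and 39.9 ± 5.41 CPM at P6 (log2 fold change 0.43 ± 0.11) and was no longer called when libraries were scaled by their totals, when Rce1, which cleaves prenylated proteins, was called lower. Fnta, the shared subunit of the enzymes that attach farnesyl and geranylgeranyl groups, had 155 ± 1.99 CPM at P30 and 99.1 ± 9.37 CPM at P6 (0.65 ± 0.09). The plot of fold changes shows all tested genes of these lists.

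**Figure D4:**
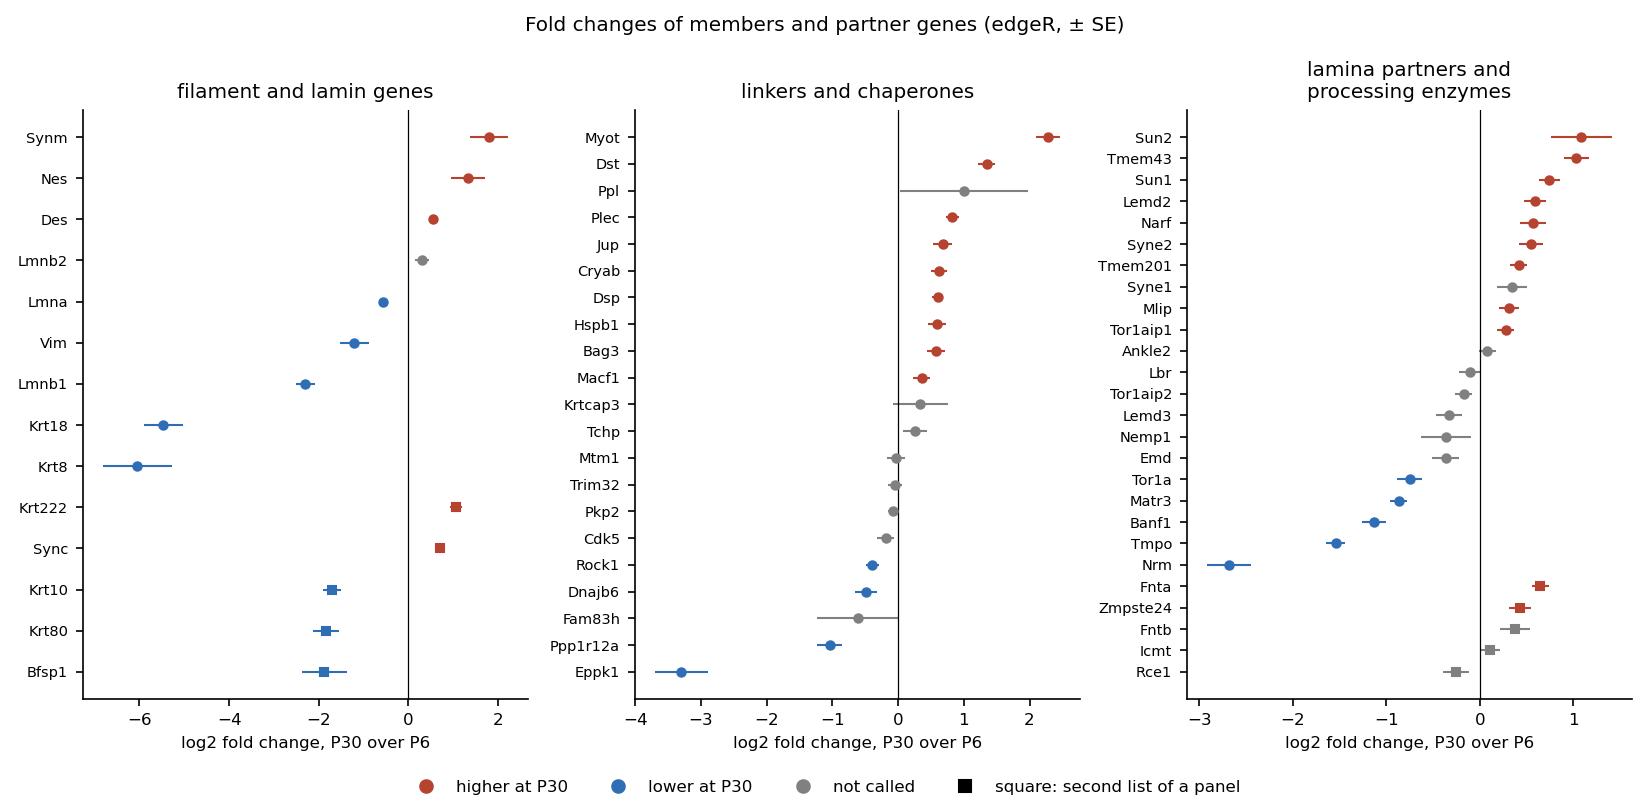
Log2 fold changes (P30 over P6, edgeR, bars ± SE) of the 9 tested filament and lamin genes with 5 other filament genes (squares), of 21 linkers and chaperones, and of 21 lamina partners with 5 lamin processing enzymes (squares), with red for higher at P30, blue for lower and grey for not called. Krt8 and Krt18 lie furthest to the left, Eppk1 is the lowest of the linkers and Nrm the lowest of the lamina partners; the fold change of Krt8 rests on 2 counts at P30.

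The genes whose log2 CPM ran closest to a member over the 7 libraries were taken by Pearson correlation. All 7 points fall into the 2 ages, which set most of each value. For Krt18 they were Pafah1b3 (r = 0.999), Pdk3 (r = 0.999) and Tgfb1i1 (r = 0.998). For Lmnb1 they were Samd10 (r = 0.998), Srebf2 (r = 0.997) and Fbxw17 (r = 0.997). Des was followed by 2310046O06Rik (r = 0.999), H2-T24 (r = 0.997) and Trim72 (r = 0.997), and Vim by Arl6ip1 (r = 0.990), Tk2 (r = 0.987) and Cntln (r = 0.984). Pafah1b3, a subunit of an acetylhydrolase, had 0.948, 1.23 and 0.842 CPM in P30a to P30c, against 7.87, 8.89, 10.2 and 13.6 CPM in P6a to P6d.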

How the data were processed

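Raw read counts per gene were deposited by the authors as one table of 7 columns, made with CASAVA 1.8, STAR 2.5.3a and featureCounts of Subread 1.5.2 on mm10, per the submitters' processing notes. RNA had been copied with a SMART-Seq kit and turned into Nextera XT libraries, per the labels' protocols. For the annotation, the strand setting and multi-mapping reads, the choice made is not given in the sources used here. The authors' deposited DESeq2 table was not used. Columns carry an age and a letter, which no label ties to a sample number, and were grouped by age; the lowest chi-square per gene between libraries of one age was 12.3, above the 1 of sampling noise, so none was counted as a repeat. The test for age was edgeR's (version 4.0.16, under R 4.3.3; filterByExpr, TMM factors, quasi-likelihood F-test without covariates, Benjamini-Hochberg over 12561 genes, threshold 0.05); each log2 fold change sets P30 over P6, and its SE comes from the F statistic. Lengths and coordinates came from GENCODE M21 (GRCm38), in which 22857 of 23337 symbols matched, and 99.0% of tested genes had a length; promoters came from RefSeq, for 8 of the 10 genes.

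The members, the lists of partner and marker genes and the tests were chosen with earlier results of these data known. Genes were named by rule: all 10 members; in each partner list the 2 most counted called genes per direction and the 1 with the largest change at 1 CPM or more; in each marker list the 2 most counted and those called at 10 CPM or more; and the 3 most correlated genes of 4 members. Syne3 and Muc16 had no row. For every list the background is the share of all genes tested, 26.3% higher and 27.8% lower at P30. Schwann cell and neuron markers summed to 5.63 to 7.63 CPM at P30 and 4.05 to 6.06 CPM at P6, with 1 of 3 tested higher. That gene, Kcna1, passed the filter on low counts only through its P30 counts. Alternatives were other size factors, library totals, no filter, DESeq2 1.42.0, removal of a transcript length trend, another length for shares, and leaving out each library.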

Additional observations from a re-analysis of the deposited data

Results flagged for a closer look

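Among 99 sets of P6 values examined (named genes, shares and marker sums), 4 had a library that stood apart from the other 3 by Dixon's criterion, about as many as chance alone flags at 1 in 20. No member was among them. Gsn, which encodes gelsolin and is listed with the fibroblast markers, had 249.9 CPM in P6b, against 177 to 183 CPM in the other P6 libraries, and Postn, a matrix protein of fibroblasts, had 52.1 CPM in P6b, against 33.3 to 36.5 CPM. Myh11, a smooth muscle myosin, had 10.8 CPM in P6c, against 2.87 to 3.76 CPM. Samd10, one of the genes closest in pattern to Lmnb1, had 10.7 CPM in P6a, against 13.1 to 13.5 CPM, and P6a was also the lowest P6 library for Lmnb1 itself, at 17.8 CPM. Groups of 3 libraries were not examined.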

How the results depend on the processing

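No paired analysis was possible because the count columns carry letters that no label ties to the replicate numbers. The 5 members lower at P30 stayed 5 under all 12 alternatives; those higher numbered 3, but 2 without P30b, which left out Nes, and 4 without P6b, which added Lmnb2. No member changed direction. The alternatives refitted the libraries on which the members were chosen, and Krt8 and Krt18 passed the filter on low counts only through their P6 counts. Nothing is therefore read from these numbers. The fitted log2 fold change of Krt8 ran from -9.15 without P30a, when both remaining P30 libraries held no count, to -5.54 without P30b, and is no bound. With library totals the median over all genes moved to -0.20 from -0.02, 2408 genes were higher and 4658 lower (3307 and 3490 with TMM factors), 8 lamina partners were lower in place of 5, and of the lamin processing enzymes 1 was higher and 1 lower. For all other counts the alternatives stayed within 1.5 times. Abcc9, a marker near 0 change, turned to -0.14 with library totals and with the length trend removed, and ran from -0.070 to 0.14 with a library left out; Col3a1 ran from -0.70 without P30b to 0.14 without P6b. Of the fold changes of named genes, 14 lost and 7 gained a call in single alternatives; the cause was not tested. The share of Lmnb1 in the B-type lamins was 34.6% at P30 and 75.8% at P6 with the union of exons as length, and 26.8% at P30 and 68.5% at P6 from raw counts. Depth limits Krt8 and Krt19 at P30 and Krt19 and Synm at P6.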

Other observations

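Other called genes of the linker and envelope lists, chosen after their values were seen, include proteins of the Z-disc, the intercalated disc and the nuclear envelope. Myot, or myotilin, a Z-disc protein, had 32.1 ± 6.90 CPM at P30 and 6.61 ± 1.07 CPM at P6, a log2 fold change of 2.28 ± 0.18 and the highest of the 21 linkers and chaperones tested. Jup, or plakoglobin, which binds desmoplakin at the intercalated disc, had 491 ± 64.4 CPM at P30 and 307 ± 55.1 CPM at P6. The chaperone Hspb1 had 231 ± 44.5 CPM at P30 and 153 ± 19.5 CPM at P6, and its partner in protein quality control Bag3 had 256 ± 34.4 CPM at P30 and 172 ± 24.5 CPM at P6. At the nuclear envelope Tmem43, a membrane protein that binds lamins and emerin, had 42.8 ± 3.75 CPM at P30 and 21.0 ± 3.12 CPM at P6. Lbr, the lamin B receptor, had 37.5 ± 3.93 CPM at P30 and 40.3 ± 4.12 CPM at P6 and did not pass the test.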
